A study of Flaveria robusta and Flaveria ramosissima and Flaveria trinervia with 18 samples.

Results

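The light responses of leaf transcripts were compared between the C4 species Flaveria trinervia and the C3–C4 intermediate species Flaveria ramosissima. For every gene row, the change from control light to high light in F. trinervia was set against the same change in F. ramosissima. The difference of these 2 changes is called the response difference here, and it is positive where the transcript rose more, or fell less, in F. trinervia. A row was included when its mean over the 6 libraries of each species was at least 1 TPM. TPM is an abundance of transcripts corrected for gene length and scaled to one fixed total per library. The aim was that both responses could be measured, but the mean can also be reached through 1 light group alone. How many rows did so was not counted. The rule was met by 12030 of 30040 gene rows. A further 2523 rows reached this mean in F. trinervia alone, 6013 in F. ramosissima alone and 9474 in neither, and these were not compared.

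The 12 libraries came from newly expanded mature leaves, with 3 libraries in each of 4 groups, namely F. ramosissima and F. trinervia under control light (500 µmol m−2 s−1) and under high light (1400 µmol m−2 s−1). One growth protocol is given for all groups, and it names a light level below that of the control. How long the plants stood in strong light is not stated. The series also holds 6 libraries of the C3 species F. robusta, which entered only where stated. Each kind of photosynthesis is held by 1 species, so species and pathway cannot be told apart. The labels do not say whether libraries of a group came from separate plants, so that p-values cover only the spread among these libraries, which may be technical.

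In C4 leaves, PEP carboxylase fixes carbon in the mesophyll, and the C4 acids formed are decarboxylated in the bundle sheath, where CO2 is concentrated around Rubisco. C3–C4 intermediates such as F. ramosissima recapture photorespiratory CO2 in the bundle sheath and run a C4 cycle to a limited extent. In leaves in general, a rise in light is known to change transcripts for photoprotection, antioxidant defence, light harvesting and carbon metabolism. The files do not pair the row numbers with gene names. Rows are therefore described by abundance and by pattern, 4 rows are given by number, their roles and sequences are not given, and the labelled tissue could not be checked against marker genes. In whole leaves, fewer cells of a type and less RNA per cell cannot be told apart.

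Replicates lay closer together in F. trinervia than in F. ramosissima. The median SD of log2(TPM + 1) within a group was 0.182 in F. trinervia and 0.339 in F. ramosissima over the 12030 rows. A pair of F. trinervia libraries stood apart from the others of their groups. High light 2 and control 3 deviated from their group means in the same way (r = 0.796 across rows, which are not independent replicates). Both deviated against the other libraries of their own group (r between −0.918 and −0.785). Deviations within a group sum to 0, which by itself pushes r within a group below 0. Within the groups of F. ramosissima r was between −0.634 and −0.356. Between the remaining F. trinervia libraries it was 0.486 in the controls and 0.405 in high light. The main counts are given with and without these libraries. The typical row also lost share of the total under high light in F. trinervia, with a median log2 change of −0.29, and less so in F. ramosissima, with −0.13. Median-ratio scaling, which sets the typical row equal between libraries, brought these medians to −0.021 and 0.057. The divisors of this scaling were 0.634 to 0.968 in F. ramosissima and 1.16 to 1.62 in F. trinervia. Levels compared between the species below thus hold for TPM as deposited. The labels name no batch.

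The response to high light differed between the species in 842 rows, of which 239 were more positive in F. trinervia and 603 were more negative (limma, Benjamini-Hochberg adjusted p under 0.05 over 12030 rows). These were 7% of the rows tested, 1.99% in the positive and 5.01% in the negative direction. The rows with an unadjusted p under 0.05, these included, numbered 3196. Among the 239 positive rows, the median response difference was 1.46 on the log2(TPM + 1) scale and the range was 0.70 to 4.0, and 209 rows differed by at least 1 log2 unit. Among the 603 rows, the median was −1.27 with a range of −3.66 to −0.71, and 480 differed by at least 1 log2 unit. The smallest difference called was 0.70, and the median SE of a response difference was 0.336. Over all rows the median response difference was −0.14, with quartiles of −0.55 and 0.34. On this scale the change of rows of low abundance is understated.

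Most called rows moved in opposite directions in the 2 species. Of the 239 rows, 217 had a higher mean under high light in F. trinervia and a lower mean in F. ramosissima, while 12 were higher in both and 10 lower in both. Their median change was 0.87 in F. trinervia and −0.61 in F. ramosissima. Of the 603 rows, 562 were lower in F. trinervia and higher in F. ramosissima, 40 were lower in both and 1 was higher in both. Their median change was −0.88 in F. trinervia and 0.37 in F. ramosissima. The rows were chosen on the difference of the same values, so these counts describe them and are no support for opposite responses. Over all 12030 rows, 2439 were higher in F. trinervia and lower in F. ramosissima, 3286 were the reverse, 941 were higher in both and 5364 lower in both.

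As deposited, the change of F. trinervia was the larger in size in 153 of the 239 rows and in 489 of the 603 rows, and that of F. ramosissima in 86 and 114. After median-ratio scaling, F. trinervia had the larger change in 384 of 468 positive rows, but in only 211 of 399 negative rows, against 188 for F. ramosissima. In the same model, the light response itself was called in F. trinervia for 394 rows that were higher under high light and 2069 that were lower (3.28% and 17.2%). In F. ramosissima, 31 rows were called higher and 78 lower (0.258% and 0.648%). These responses share all libraries with the response difference, and the model uses 1 spread per row for both species, which lies below the spread of F. ramosissima alone. Together these were 2463 rows (20.5%) in F. trinervia and 109 rows (0.906%) in F. ramosissima. The split by direction in F. trinervia turned with the scaling. After median-ratio scaling 1213 rows were called there (10.1%), 847 higher (7.04%) and 366 lower (3.04%), and 269 in F. ramosissima (2.24%), 144 higher (1.2%) and 125 lower (1.04%). After quantile normalization the numbers were 1314 (10.9%), 732 (6.08%) and 582 (4.84%) in F. trinervia, and 167 (1.39%), 80 (0.665%) and 87 (0.723%) in F. ramosissima. These counts also rested on single libraries and on the spread assumed, which leans to the species with more libraries left when 1 is dropped. In F. trinervia, rows called higher and lower numbered 56 and 312 if its control 1 was dropped, 43 and 184 if control 2 was, and 211 and 1091, 112 and 451, and 154 and 769 if high-light library 1, 2 or 3 was. In F. ramosissima, dropping its control 2 gave 169 higher and 997 lower, control 1 gave 8 and 26, control 3 gave 13 and 22, and high-light library 2 gave 9 and 16, while high-light library 3 gave 46 and 130. Its counts also fell when F. trinervia libraries were dropped, to between 5 and 7 higher and 16 to 22 lower for control 1, control 2, high light 1 or high light 3, and to 18 and 38 for high light 2. Without both libraries that stood apart, F. trinervia had 151 higher and 300 lower and F. ramosissima 10 and 28. With a separate weight per species, in place of 1 common spread, the numbers were 1014 and 4653 in F. trinervia and 1 and 4 in F. ramosissima.

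**Figure D1:**
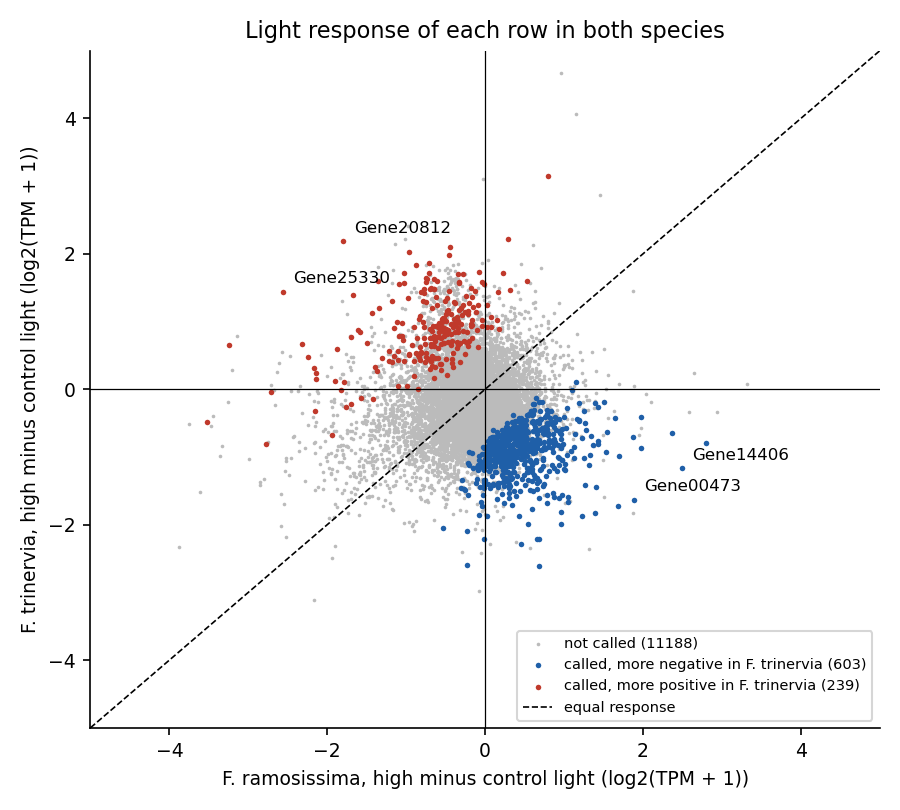
Light response of each of the 12030 rows, with the change from control to high light in F. ramosissima on the horizontal axis and in F. trinervia on the vertical axis, both on the log2(TPM + 1) scale. The dashed line marks equal responses. The 239 rows called more positive in F. trinervia (red) lie above it and the 603 called more negative (blue) below it, and the 4 rows given by number are marked.

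Rows were also counted by the separation of single libraries, without a model. In 454 rows (3.77%) the light groups were apart in both species and in opposite directions. In 143 rows the 3 high-light libraries lay above the 3 controls in F. trinervia and below them in F. ramosissima, which was 1.19% of all rows. In 311 rows, or 2.59%, they lay below in F. trinervia and above in F. ramosissima. Rows below in both species numbered 481 (4%) and rows above in both 52 (0.432%). After median-ratio scaling, these 4 counts were 207 (1.72%), 378 (3.14%), 220 (1.83%) and 239 (1.99%). The counts of rows apart in opposite directions were thus higher after scaling, and the excess of rows lower in both species over rows higher in both was gone. Among the called rows, 95 of 239 and 238 of 603 were apart in opposite directions, and no called row had overlapping light groups in both species.

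The balance of directions depended on the scaling between libraries. As deposited, 28.4% of the called rows were more positive in F. trinervia. After median-ratio scaling 867 rows were called (7.21%), 468 more positive (3.89%) and 399 more negative (3.32%), so that 54.0% of the calls were positive. After quantile normalization 938 rows were called (7.8%), 419 more positive (3.48%) and 519 more negative (4.31%), so that 44.7% were positive. Of the 842 rows, 584 were called in the same sense after median-ratio scaling and 634 after quantile normalization. No row was called in the opposite direction after median-ratio scaling. Of the 239 positive rows 93.3% were called again after median-ratio scaling, against 59.9% of the 603 negative rows. In all 3 versions 545 rows were called in the same direction, 207 more positive and 338 more negative. After median-ratio scaling, the median changes of the 468 positive rows were 1.06 in F. trinervia and −0.36 in F. ramosissima, and those of the 399 negative rows −0.61 and 0.59.

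The number of called rows also changed when single libraries were left out, above all those of F. trinervia. These fits have unequal groups, so the 1 spread per row leans to the species with more libraries left. Without a F. trinervia library it leans to the wider spread of F. ramosissima. How much of the change in counts came with this was not tested. Without F. trinervia control 1 or control 2, 79 and 65 rows were called. Without its high light 1, 2 or 3, the counts were 255, 116 and 218. All 12 libraries gave 842 rows, and the counts were 556 without F. ramosissima control 3 and 467 without its high light 1. The count of positive rows was 501 without F. ramosissima control 2 and 454 without F. trinervia control 3, against 239 with all libraries, while leaving out F. ramosissima control 3, high light 1 or high light 2 gave 138, 138 and 143. Without both F. trinervia libraries that stood apart, 373 rows were called, 180 more positive and 193 more negative. Rows with an unadjusted p under 0.05 numbered between 2422 and 3566 when 1 library was left out, so the counts after adjustment moved more than those before it.

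**Figure D2:**
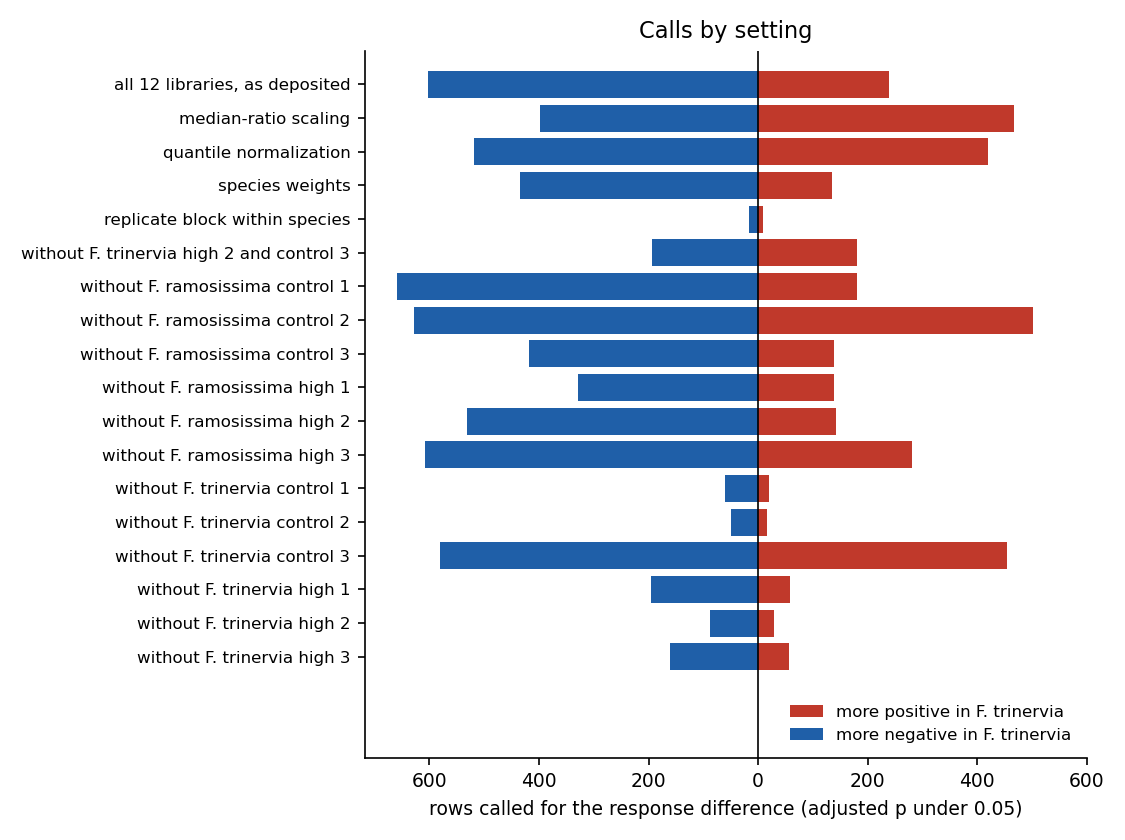
Number of rows called for the response difference (horizontal axis, adjusted p under 0.05), with rows more positive in F. trinervia to the right in red and rows more negative to the left in blue, for the values as deposited, other settings and each library left out. The counts shrink from 842 to between 65 and 255 when control 1, control 2 or any high-light library of F. trinervia is left out.

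A set of 61 rows was called in the same direction with all libraries and in each of the 12 fits that left out 1 library, of which 16 were more positive in F. trinervia and 45 more negative. All 61 kept this call under median-ratio scaling and under quantile normalization. This set was chosen on its values and is given as a description. The 16 rows had response differences of 1.25 to 3.98 (median 2.23), with median changes of 0.79 in F. trinervia and −0.87 in F. ramosissima. The 45 rows had response differences of −3.52 to −1.29 (median −1.91), with median changes of −1.17 and 0.73. In 44 of the 61 rows the light groups of both species were apart in opposite directions. Their mean abundance over the 12 libraries ranged from 1.84 to 783 TPM in the 16 rows and from 5.06 to 191 TPM in the 45 rows.

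Rows of moderately high abundance, with a mean of 100 to 1000 TPM over the 12 libraries, stood apart in direction. Of 838 such rows, 75 were called more positive in F. trinervia and 37 more negative, which was 8.95% and 4.42% of the class against 1.99% and 5.01% of all rows. Their median response difference was 0.23, with a median change of 0.20 in F. trinervia and −0.09 in F. ramosissima. Of 5334 rows between 10 and 100 TPM, 127 were more positive (2.38%) and 334 more negative (6.26%), with a median response difference of −0.15. Both shares were above those of all rows. Of 5747 rows under 10 TPM, 32 were more positive (0.557%) and 227 more negative (3.95%), with a median of −0.16. The median SE was 0.340 between 100 and 1000 TPM and 0.336 over all rows. What lies behind the higher share of calls in this class was not tested.

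Relative to all rows, the calls in this class leaned to the positive side under other settings too, but the excess of positive over negative calls within the class did not always hold. After median-ratio scaling, 136 of the 838 rows were more positive and 17 more negative, 16.2% and 2.03% of the class. After quantile normalization 69 were more positive and 56 more negative. The positive share of these calls was 55.2%, against 44.7% over all rows. The positive share was higher in the class than over all rows in each of the 36 alternatives that called any of its rows. The remaining alternative, with the replicate number as a block within species, called none of its rows. The alternatives reuse the libraries that set the class, so the tally of 36 is no independent support. Some called few rows of the class, such as 1 positive and 0 negative after median-ratio scaling without F. trinervia control 2. Without 1 library, the median response difference of the class lay between 0.21 and 0.26. Over all alternatives it lay between 0.12, after quantile normalization, and 0.41, after median-ratio scaling without F. ramosissima control 1. The class held 75 positive and 37 negative calls with all libraries. It held 6 positive and 7 negative without F. trinervia control 1, 5 and 4 without its control 2, and 17 and 12, 9 and 9, and 17 and 11 when its high-light libraries 1, 2 and 3 were left out. Without both libraries that stood apart, there were 57 positive and 16 negative. Among the libraries of F. ramosissima, the positive count was 47 and 44 without controls 1 and 3, and 39 and 47 without high-light libraries 1 and 2. Without F. ramosissima control 2 or F. trinervia control 3 it was 115 and 130. Abundance classes were set on the same 12 libraries.

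**Figure D3:**
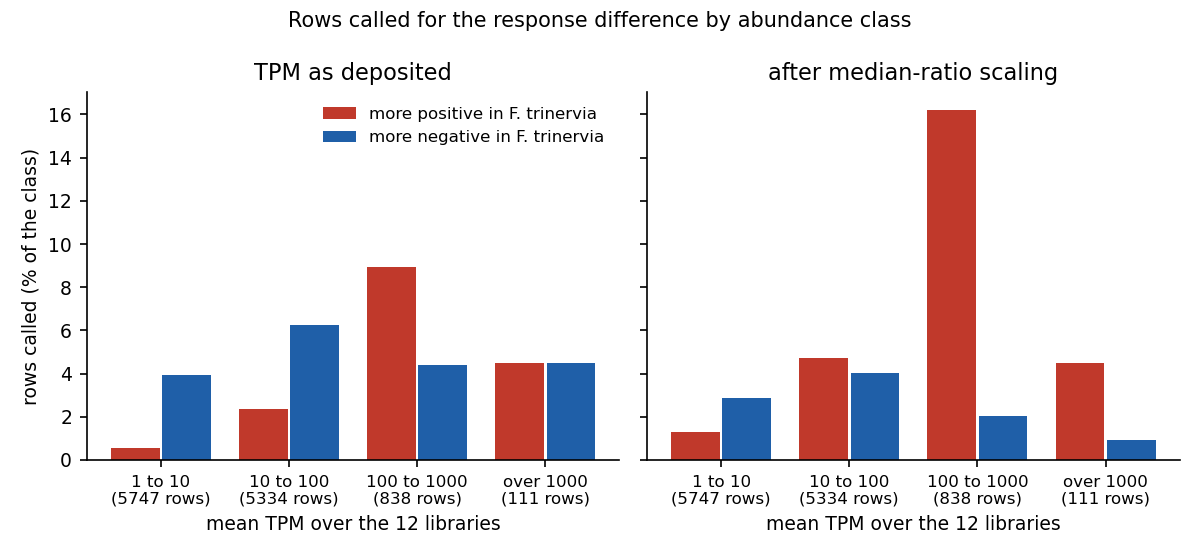
Share of rows called for the response difference (vertical axis, percent of the class) by mean abundance over the 12 libraries (horizontal axis), for TPM as deposited (left) and after median-ratio scaling (right). In the class of 100 to 1000 TPM, 8.95% of 838 rows were more positive in F. trinervia as deposited and 16.2% after scaling, the highest positive share of the 4 classes in both panels.

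Among the 111 rows with a mean above 1000 TPM, 10 were called, 5 in each direction. These were 9.01% of the class, 4.5% in each direction, against 7% of all rows, 1.99% positive and 5.01% negative. The 5 positive rows had means of 1163, 1221, 10963, 6286 and 18427 TPM and response differences of 1.55, 1.26, 1.14, 0.93 and 0.84 (limma adjusted p between 0.0278 and 0.0438). In all 5 the high-light libraries of F. trinervia lay above its controls, and in 1 of them the light groups of F. ramosissima were also apart, in the other direction. The 5 negative rows had means of 1655, 1269, 3928, 1391 and 1090 TPM and response differences of −0.92, −1.17, −1.24, −2.06 and −2.40 (limma adjusted p between 0.0177 and 0.0489). In all 5 the high-light libraries of F. trinervia lay below its controls, and in 3 those of F. ramosissima lay above theirs. After median-ratio scaling, 3 of the positive and 1 of the negative rows were called.

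The 15 largest response differences in each direction, among rows called as deposited and after median-ratio scaling with at least 5 TPM in the highest group, came from rows of moderate abundance. In the positive direction they ranged from 2.58 to 4.0, with means of 7.07 to 109 TPM. In 10 of the 15 rows the light groups of both species were apart in opposite directions, and in 7 the change of F. ramosissima was the larger. In the negative direction they ranged from 2.72 to 3.66 in size, with means of 7.17 to 75.3 TPM. In 8 of these 15 rows both species were apart in opposite directions, and in 5 the change of F. ramosissima was the larger. From each direction 2 rows are described by library, the one with the largest response difference and the next largest with both species apart in opposite directions.

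Gene20812 was the row with the smallest p of all 12030. In F. ramosissima it had 19.53, 18.25 and 16.38 TPM under control light and 4.54, 4.76 and 4.15 TPM under high light. In F. trinervia it had 4, 2.78 and 5.6 TPM under control light and 22.38, 22.37 and 20.64 TPM under high light. All high-light libraries thus lay below the controls in F. ramosissima and above the controls in F. trinervia, with no overlap between light groups in either species. The change was −1.80 in F. ramosissima and 2.19 in F. trinervia on the log2(TPM + 1) scale (SE 0.192 for both, limma adjusted p 0.00277 and 0.00179). The response difference was 3.98 (SE 0.271, 95% interval 3.39 to 4.58, limma adjusted p = 0.000122). It was called in all 12 fits without 1 library, with differences of 3.78 to 4.18, and its adjusted p lay between 4.82e-05 and 0.0218 over the alternatives. As deposited, the transcript was the more abundant in F. ramosissima under control light, with 18.1 ± 1.58 against 4.13 ± 1.41 TPM. Under high light it was the more abundant in F. trinervia, with 21.8 ± 1.00 against 4.48 ± 0.309 TPM (SD, n = 3).

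Gene25330 had the largest response difference of all rows, but less steady values. In F. ramosissima it had 58.61, 19.88 and 23.88 TPM under control light and 14.85, 3.86 and 0.96 TPM under high light. In F. trinervia it had 0.41, 0.07 and 0.63 TPM under control light and 1.25, 3.57 and 3.82 TPM under high light. All F. trinervia libraries lay below 4 TPM and below most of the F. ramosissima libraries, and the light groups did not overlap in either species. The row reached the mean of 1 TPM in F. trinervia only through its high-light libraries. Its group means there were 0.37 TPM under control light and 2.88 TPM under high light. At the minimum of 5 TPM in each species it was not tested, so the range over the alternatives leaves that setting out. The response difference was 4.0 (SE 0.914, 95% interval 2.0 to 6.01, limma adjusted p = 0.0295, 0.0142 to 0.1 over the alternatives). Neither species passed alone, with changes of 1.44 in F. trinervia (limma adjusted p = 0.128) and −2.56 in F. ramosissima (limma adjusted p = 0.0772). The call was lost in 5 of the 12 fits without 1 library. The adjusted p was 0.0515 without F. ramosissima high light 2, and 0.0777, 0.0881, 0.0753 and 0.0717 when F. trinervia control 1, its control 2, or its high-light library 2 or 3 was left out. It was also lost without both F. trinervia libraries that stood apart (limma adjusted p = 0.0777).

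Gene14406 had the largest negative response difference among the rows that met the rule. In F. ramosissima it had 6.25, 12.01 and 8.3 TPM under control light and 24.15, 39.85 and 151.62 TPM under high light. In F. trinervia it had 18.64, 19.42 and 45.02 TPM under control light and 10.11, 11.41 and 10.77 TPM under high light. The highest value of each species came from a single library, high light 3 in F. ramosissima and control 3 in F. trinervia, and the light groups did not overlap in either species. The response difference was −3.66 (SE 0.784, 95% interval −5.38 to −1.94, limma adjusted p = 0.0256, 0.0124 to 0.0783 over the alternatives). The changes of the single species, −1.17 in F. trinervia and 2.49 in F. ramosissima, did not pass (limma adjusted p = 0.147 and 0.06). The difference was between −4.21 and −2.91 when 1 library was left out. It was no longer called when control 1 or 2 of F. trinervia was left out (limma adjusted p 0.0639 and 0.0714) or when its high-light library 1, 2 or 3 was (0.0571, 0.0656 and 0.059), nor without both libraries that stood apart (0.0691).

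Gene00473 was the steadier of the negative rows. In F. ramosissima it had 4.56, 9.15 and 13.82 TPM under control light and 34.59, 45.27 and 24.74 TPM under high light. In F. trinervia it had 15.15, 12.48 and 11.49 TPM under control light and 3.95, 2.49 and 4.3 TPM under high light. All high-light libraries thus lay above the controls in F. ramosissima and below the controls in F. trinervia. The change was 1.89 in F. ramosissima and −1.63 in F. trinervia (SE 0.335 for both, limma adjusted p 0.0355 and 0.0118). The response difference was −3.52 (SE 0.474, 95% interval −4.56 to −2.48, limma adjusted p = 0.00761, 0.00163 to 0.0579 over the alternatives). It was called in all 12 fits without 1 library, with differences of −3.85 to −3.14. As deposited, both species had similar levels under control light, 9.18 ± 4.63 TPM in F. ramosissima and 13.0 ± 1.89 in F. trinervia. Under high light they had 34.9 ± 10.3 and 3.58 ± 0.960 TPM (SD, n = 3).

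**Figure D4:**
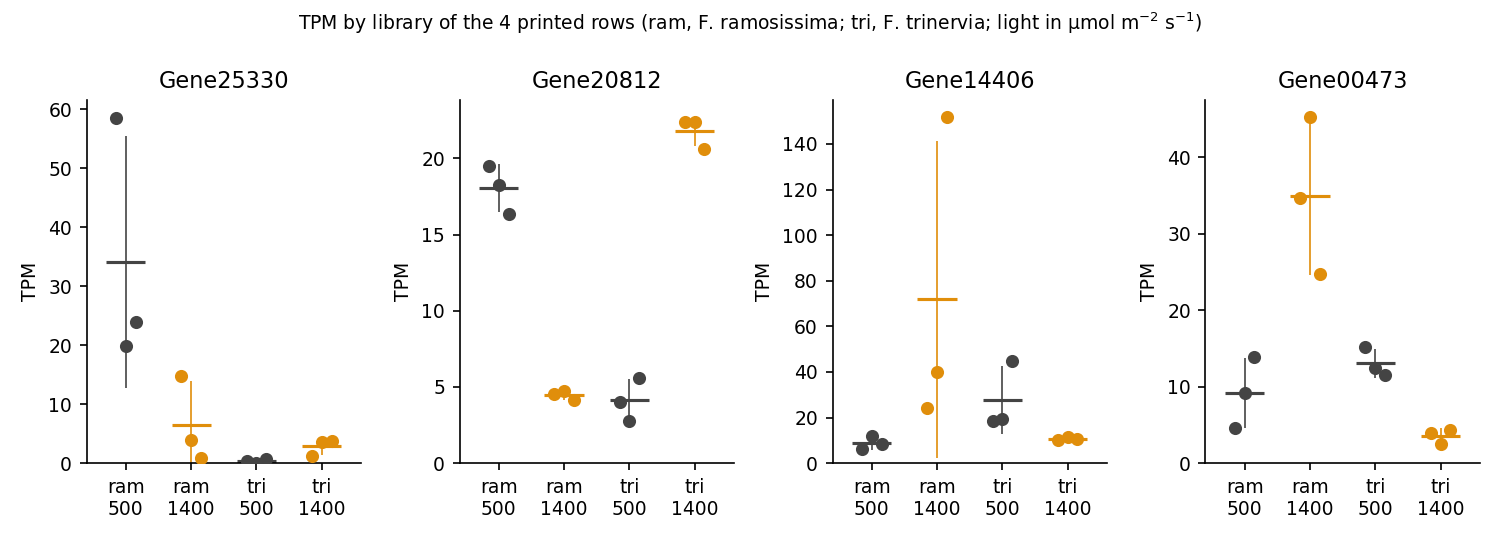
TPM of the 4 rows given by number (vertical axis, linear, from 0) in each library of F. ramosissima (ram) and F. trinervia (tri) at 500 or 1400 µmol m−2 s−1 (horizontal axis). Points are libraries, horizontal lines group means and vertical lines 1 SD, cut at 0. Gene20812 falls from 18.1 to 4.48 TPM in F. ramosissima and rises from 4.13 to 21.8 TPM in F. trinervia, and Gene00473 shows the reverse order of directions.

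The libraries of F. robusta, which the rule did not use, gave the response of the C3 species for the same rows. Of the 239 rows more positive in F. trinervia, 28.5% (68 rows) had a higher mean under high light in F. robusta, against 38.5% of all rows, and the median change was −0.13, against −0.026. Of the 603 rows more negative in F. trinervia, 41.5% (250 rows) were higher, with a median change of −0.00062. The share of higher rows in F. robusta was thus below that of all rows in the first set and above it in the second. These shares were not tested. In the 16 and 45 rows that were called without any single library, the median change in F. robusta was −0.03 and 0.09. Of all rows compared, 10651 (88.5%) also had a mean of at least 1 TPM in F. robusta.

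For the rows given by number, F. robusta had 38.97, 56.56 and 18.77 TPM of Gene20812 under control light and 18.2, 15.52 and 21.42 TPM under high light. The light groups overlapped, and the change of −0.89 did not pass (SE 0.299, limma on all 18 libraries, adjusted p = 0.144). Gene00473 had 17.7 ± 5.64 and 11.8 ± 1.48 TPM, Gene14406 had 19.2 ± 1.61 and 16.0 ± 7.19 TPM, and Gene25330 had 1.08 ± 0.597 and 1.35 ± 0.537 TPM under control and high light (SD, n = 3). None of these 3 changes passed (limma adjusted p 0.52, 0.903 and 1).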

How the data were processed

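The authors deposited 1 table of TPM values for 18 libraries. Sequencing was Illumina paired-end with a read length of 150 bp per the labels. RSEM and edgeR appear, without versions, in the submitters' processing notes. How rows were paired between species, the aligner and the reference are not stated. TPM keeps no read depth, so depth is unknown and no counting interval was computed. Of 30041 rows, 1 lacked its line break and was dropped. Columns with H were taken for high light and those with L for the control. The listed TPM summed to between 913490 and 928670 per library.

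Values were transformed to log2(TPM + 1). The 12 libraries were fitted with limma (version 3.58.1, R 4.3.3, lmFit and eBayes with abundance trend, 4 groups, 8 residual degrees of freedom, two-sided), with Benjamini-Hochberg adjustment over 12030 rows and a threshold of 0.05. With groups of equal size, 1 spread per row gives an unbiased variance of the response difference also where the species differ in spread. The degrees of freedom are then fewer than the model counts, so p-values can be too small. With species weights 569 rows were called, 135 more positive and 434 more negative. The fits without 1 library have unequal groups, so the variance is not unbiased there. Rows given by number passed as deposited and after median-ratio scaling with at least 5 TPM in the highest group. In each direction these were the row with the largest response difference and the largest other one with both species apart in opposite directions. Members, classes and rules were chosen with earlier results of these data known. Gene lists resting on gene names could not be used. Alternatives are given in the closing section. The scripts were tested on simulated data.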

Additional observations from a re-analysis of the deposited data

Results flagged for a closer look

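The light response differed between the 2 species, by the test of the difference itself, in 842 rows. In F. trinervia 239 of them were more positive and 603 were more negative. The rows given by number were chosen among those that passed this same test, so their passing it was fixed by the choice. The response difference was 4.0 for Gene25330, 3.98 for Gene20812, −3.66 for Gene14406 and −3.52 for Gene00473 on the log2(TPM + 1) scale (limma adjusted p 0.0295, 0.000122, 0.0256 and 0.00761). Gene25330 reached the mean of 1 TPM in F. trinervia only through its high-light libraries, so its call is not independent of the row filter. The values of single results in groups of 3 libraries were not tested for outlying samples.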

How the results depend on the processing

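The count of called rows stayed within 1.5 times of 842 with a pseudocount of 0.1, with no filter or a minimum of 5 TPM, with median-ratio or quantile scaling, with species weights, without the abundance trend, with the replicate number as a block across species and with all 18 libraries. The number of rows tested changed with the filter, so the share called did not hold as the count did. With no filter 708 of 17330 rows were called, and with a minimum of 5 TPM 776 of 6783. In the fit of all 18 libraries with its own filter 603 of 18911 were called, against 842 of 12030 in the main fit. The positive and negative parts of the count moved further in some of these settings. Positive and negative rows numbered 468 and 399 after median-ratio scaling, positive rows 419 after quantile normalization and 135 with species weights, and negative rows 369 and 337 in the 2 fits of all 18 libraries. When the high-light library 2 and the control 3 of F. trinervia were left out together, 373 rows were called, 193 of them negative, and 789 rows were apart in opposite directions. With median-ratio scaling in addition, chosen after seeing the data, these counts were 523, 206 and 1071. With only 2 F. trinervia libraries per group, chance separation is more frequent by construction.

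Leaving out 1 library gave from 65 to 1130 called rows, 16 to 501 positive, 49 to 660 negative, 475 to 865 apart in opposite directions and a median response difference of −0.221 to −0.0484. The same after median-ratio scaling, also added later, gave 15 to 1276, 9 to 674, 6 to 602, 610 to 1046 and −0.0684 to −0.0287. The causes were not tested. Leaving out a library can only keep or add rows apart in opposite directions. By construction these counts could thus not fall below that of all libraries, which was 454 (3.77%) as deposited. The replicate number as a block within species, which leaves fewer residual degrees of freedom, gave 24 rows (8 positive, 16 negative), and across species 153 positive rows. Within species, Gene25330, Gene14406 and Gene00473 lost their calls (limma adjusted p 0.0579, 0.0633 and 0.0579). Same-numbered libraries did not all deviate together (r = −0.0981, 0.261 and 0.126 in F. ramosissima, 0.666, −0.599 and −0.608 in F. trinervia). With both signs among the pairs, the numbers were not taken to pair the libraries. Read depth is unknown and its effect on rows of low abundance could not be measured.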

Other observations

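The rows called more positive in F. trinervia took 5.96% ± 0.846 of its listed TPM in the controls and 10.8% ± 0.453 in high light (SD, n = 3). In F. ramosissima they took 6.15% ± 0.688 and 4.90% ± 0.776. The rows called more negative took 4.22% ± 0.368 and 2.29% ± 0.201 in F. trinervia, and 2.47% ± 0.237 and 3.80% ± 0.217 in F. ramosissima. These shares follow from the choice of the rows and give only the amount of transcript they hold.

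Called rows lay alike in both parts of the row numbering. Of 6486 rows numbered up to 19000, 454 were called (137 more positive, 317 more negative), and of 5544 rows numbered above 19000, 388 (102 and 286). Of the rows compared, 3 were listed at 0 in every library of at least 1 group, and 0 of these 3 were called.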
